A study of Mus musculus with 4 samples.

Results

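The CC chemokine genes Ccl2, Ccl3, Ccl4, Ccl5, Ccl6, Ccl7, Ccl9 and Ccl12 were followed through the immune cells of the amyloid-bearing mouse cortex. These 8 genes were taken by name from a table of 16798 genes that holds 15 Ccl genes in all, and all 8 were detected. CD45+ cells had been sorted from digested cortices and profiled by droplet single-cell RNA sequencing, in which a unique molecular identifier (UMI) counts a captured RNA molecule. Every mouse carried the APP/PS1 transgenes, which drive amyloid deposition, and was 18 months old. The AD group carried APP/PS1 alone. The ADAM group was APP/PS1 Axl-/- Mertk-/- and so also lacked both TAM receptors, kinases by which phagocytes recognise phosphatidylserine through bridging proteins. The labels tie neither deletion to a cell type. The study asks how these receptors bear on the handling of amyloid plaques by microglia. Each library pooled 2 cortices and each genotype had 2 libraries, called AD 1, AD 2, ADAM 1 and ADAM 2, described by the submitters as biological replicates. All comparisons are between amyloid-bearing groups. A p-value here weighs a difference against the spread between pools, 2 on each side, which is estimated largely from other genes.

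Chemokines are small secreted proteins that attract leukocytes along a gradient by binding G protein-coupled receptors, and the CC family carries adjacent cysteines near its amino terminus. Ccl2, Ccl7 and Ccl12 are ligands of Ccr2 and draw monocytes out of bone marrow and blood. Ccl3 and Ccl5 are ligands of Ccr1, and Ccl4 is a close relative of Ccl3. Ccl6 and Ccl9 are rodent ligands of Ccr1 that are made by myeloid cells. In the brain, Ccl3 and Ccl4 are known as early genes of activated microglia, and they are also prone to induction while tissue is being dissociated. Ccl5 is a product of cytotoxic T cells and NK cells.

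The 4 libraries held 3241 to 4543 cells and 14963857 to 29831947 UMIs. Cell classes and microglial states were those of the authors' deposited annotation. It gives 9 classes and divides 9077 microglia into 7 states that carry numbers and no names, of which state 0 had 4836 cells and state 5 had 2718. A level below is in CPM, the UMIs of a gene in every 1000000 UMIs of that set of cells in that library, given only where the library had at least 20 such cells. In microglia, Axl was at 104, 67.1, 5.37 and 7.22 CPM in AD 1, AD 2, ADAM 1 and ADAM 2, low in both ADAM libraries. Mertk was at 274, 296, 246 and 274 CPM, which does not check the label, since 3′ counts can come from outside a deleted part that the labels do not give. The microglial markers Tmem119, P2ry12, Sall1 and Cx3cr1 summed to 3673 to 4975 CPM in microglia and 92.4 to 117 CPM in T and NK cells. ADAM 2 stood apart from the other libraries. Neutrophil markers summed to 792 CPM in its microglia, against 15.4 to 54.5 CPM in the others. Haemoglobin transcripts summed to 4498 CPM there, against at most 0.612 CPM. Barcodes shared between libraries numbered 24 and covered 48 cells.

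All 8 genes lie on mouse chromosome 11 (GRCm38, the mm10 build) as protein-coding genes, in a pair of clusters separated by 1422377 bp. The first cluster holds the Ccr2 ligands on the plus strand, with Ccl2 at chr11:82035571-82037453, Ccl7 at chr11:82045712-82047525 and Ccl12 at chr11:82101845-82103400. The second holds Ccl5 at chr11:83525778-83530518, Ccl9 at chr11:83572919-83578636, Ccl6 at chr11:83587882-83593087 and Ccl3 at chr11:83647844-83649355, all on the minus strand, and Ccl4 at chr11:83662584-83664683 on the plus strand. Neither Axl (chromosome 7) nor Mertk (chromosome 2) is on this chromosome. No stretch of 31 bases was shared between the transcripts of any pair of members. Stretches shared with other genes made up 3.75% of those in Ccl9, 1.02% in Ccl6 and 0.539% in Ccl5, and none in the other 5. Ccl2 overlaps the antisense gene Gm17268 and Ccl6 overlaps E230016K23Rik. The sources used here do not say whether counting used strand, so reads of these pairs cannot be told apart.

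Promoter windows, 250 bases before the start site and 50 after it, were read for the 4 members that RefSeq's promoter table (GRCm38.p6) held, which were Ccl3, Ccl6, Ccl9 and Ccl12. The 250 bases before the start of 3 of them are printed because the genotype and state patterns below turn on these genes. Each runs 5′ to 3′ on the strand of the gene, Ccl12 from chr11:82101595-82101844, Ccl9 from chr11:83578637-83578886 and Ccl6 from chr11:83593088-83593337. Capitals mark matches to the motifs searched.
Ccl12: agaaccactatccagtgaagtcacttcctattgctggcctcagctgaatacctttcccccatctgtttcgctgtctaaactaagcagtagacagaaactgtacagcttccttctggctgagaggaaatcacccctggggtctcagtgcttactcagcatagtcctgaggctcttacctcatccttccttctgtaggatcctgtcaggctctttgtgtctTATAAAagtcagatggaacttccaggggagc
Ccl9: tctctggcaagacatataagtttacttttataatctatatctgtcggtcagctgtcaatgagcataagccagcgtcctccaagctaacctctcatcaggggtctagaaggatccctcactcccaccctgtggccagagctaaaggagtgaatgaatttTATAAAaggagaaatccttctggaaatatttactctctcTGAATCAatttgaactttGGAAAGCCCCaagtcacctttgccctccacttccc
Ccl6: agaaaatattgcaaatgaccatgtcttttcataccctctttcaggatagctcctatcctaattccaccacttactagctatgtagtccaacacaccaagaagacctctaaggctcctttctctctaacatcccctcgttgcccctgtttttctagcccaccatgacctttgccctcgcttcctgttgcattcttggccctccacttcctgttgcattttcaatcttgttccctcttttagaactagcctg
The motifs searched, over the whole windows, were TATAAA on the sense strand and, on both strands, TGANTCA (AP-1), the core of the interferon-stimulated response element, GAGGAAG (PU.1) and the NF-kB consensus. Ccl12 held TATAAA, starting at position -31 from the start site. Ccl9 held TATAAA at position -92, an AP-1 match at -53 and, on the reverse strand, an NF-kB match at -35, with no overlap among them. No match was found in the Ccl6 or Ccl3 window. Of 32851 promoter windows of the same table, 8.32% held TATAAA, 7.81% the AP-1 motif, 3.44% the interferon motif, 13.6% the PU.1 motif and 8.46% the NF-kB consensus. Among the 4 windows, Ccl6 and Ccl9 were the closest pair when whole windows were aligned, identical at 170 of 239 aligned bases (71.1%).

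The members were made by different cells. Microglia supplied 91.4% to 95.4% of all Ccl3 UMIs over the 4 libraries, 86.8% to 91.2% of Ccl4 and 78.0% to 87.7% of Ccl12. T and NK cells supplied 91.4% to 94.9% of Ccl5, and macrophages supplied 65.2% to 80.3% of Ccl7. Ccl2 was shared among microglia, with 55.6% to 67.4%, macrophages, with 7.68% to 25.5%, proliferating cells, with 3.75% to 16.6%, and monocytes, with 0.248% to 11.8%. In ADAM 2, monocytes (9.93%) and proliferating cells (8.11%) each supplied more Ccl2 than macrophages. Ccl6 and Ccl9 came from microglia (45.9% to 87.1% and 41.6% to 81.3%) and from other myeloid classes, and neutrophils held 0.544% to 37.1% of the Ccl6 UMIs. These shares follow the number of cells of each class that the sort recovered, so levels per set are given next. Since the classes and states were made from the same expression values, differences between sets are described and not tested.

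**Figure D1:**
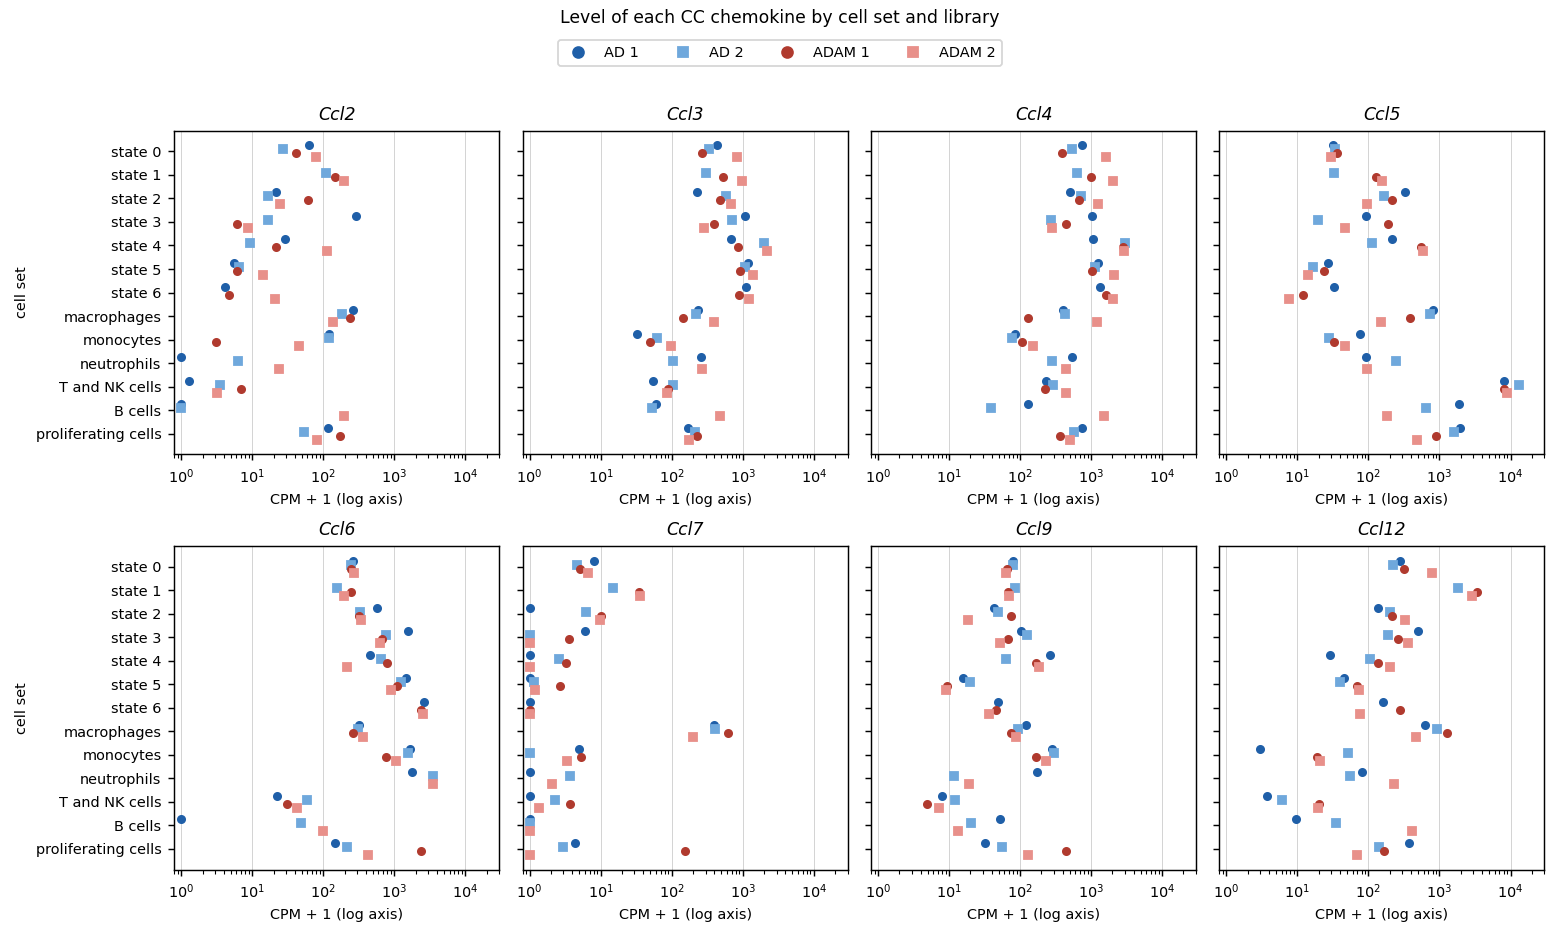
Level of each CC chemokine in each cell set. Each panel is a gene, each row a set of cells, the x axis is CPM + 1 on a log axis, and each point is a library with at least 20 cells of that set. Ccl5 sits highest in T and NK cells and Ccl7 in macrophages in every library, while the mean levels of Ccl3 and Ccl4 are highest in microglial states 4, 5 and 6.

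Ccl2, Ccl7 and Ccl12, the Ccr2 ligands, were highest in macrophages among the sets with 20 cells in every library. Macrophages here are the class with Mrc1, Pf4, F13a1, Cd163 and Lyve1, which summed to 1796 to 2990 CPM in it and to 2.78 to 6.70 CPM in T and NK cells. Ccl7 stood at 398 CPM in AD 1, 412 CPM in AD 2, 623 CPM in ADAM 1 and 200 CPM in ADAM 2. Every one of these exceeded every other set of that size, where the next level was 153 CPM in the proliferating cells of ADAM 1. In microglia, Ccl7 was at 3.15, 2.81, 4.15 and 3.69 CPM. When every cell was thinned to 2000 UMIs, 0.348% to 0.435% of microglia held a Ccl7 UMI, against 0% to 0.396% of T and NK cells and 13.4% to 24.8% of macrophages. The microglial share was thus near that of lymphocytes, a class known to lack this gene, and is not read as expression across microglia. It was not even among microglia, since state 1 was at 13.8, 33.2 and 35.0 CPM in AD 2, ADAM 1 and ADAM 2, with 1.85% to 2.99% of thinned cells. In AD 1, 21 of the 27 microglial Ccl7 UMIs lay in 1 cell. In AD 1 the share in T and NK cells was 0 of 861 cells, which allows up to 0.348%. Median depths before thinning were 4719.5 to 6170 UMIs in microglia and 2925.5 to 3547.5 in T and NK cells.

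Ccl2 was at 265, 183, 235 and 137 CPM in macrophages of AD 1, AD 2, ADAM 1 and ADAM 2. In microglia it was at 39.4, 21.5, 30.5 and 48.4 CPM, below every macrophage value. Few microglia carried it, since 3.14% to 5.60% held a Ccl2 UMI at 2000 UMIs, against 0% to 0.659% of T and NK cells. State 1, with 20 cells in only 3 libraries, was higher, at 109 to 193 CPM, and overlapped macrophages. A Ccl2 UMI was held by 11.1% to 19.5% of thinned state 1 cells and 13.3% to 17.9% of thinned macrophages. The 1% of microglia with most Ccl2 held 37.9% to 63.0% of its UMIs. Among the large microglial states, state 5 was at 4.55 to 13.1 CPM and state 0 at 26.4 to 78.7 CPM, without overlap. State 3 of AD 1 reached 286 CPM, but 50 of its 56 Ccl2 UMIs lay in 1 cell and its level without that cell was 31.3 CPM.

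Ccl12, which in mouse shares its receptor with Ccl2, was at 633 CPM in macrophages of AD 1, 925 CPM in AD 2, 1279 CPM in ADAM 1 and 470 CPM in ADAM 2. State 0 microglia were at 281, 220, 311 and 779 CPM, so their range overlapped that of macrophages. State 1 had 20 cells in only 3 libraries and stood at 1825 CPM in AD 2, 3371 CPM in ADAM 1 and 2904 CPM in ADAM 2. All 3 values were above every Ccl12 value of the other sets. Beside this, 18 interferon response genes summed to 6217 to 6835 CPM in state 1 and to 493 to 748 CPM in state 0. The same list summed to 1993 to 3112 CPM in macrophages. In monocytes it summed to 4236 to 9236 CPM, where Ccl12 was at only 1.98 to 50.7 CPM. For Ccl12, state 5 was low, at 44.0, 38.3, 68.0 and 73.6 CPM, and did not overlap state 0. In thinned cells, Ccl12 was found in 26.9% to 52.5% of state 0 microglia and in 5.79% to 9.71% of state 5 microglia.

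The Ccr2 ligands tended to fall in the same macrophages. Over all 339 macrophages thinned to 2000 UMIs, Ccl2 was found in 34 of 68 cells with a Ccl7 UMI (50%) and in 21 of 271 cells without one (7.75%). Ccl12 was found in 51 of the 68 (75.0%) and in 88 of the 271 (32.5%). In single libraries, Ccl2 was present in 48.4% to 55.6% of cells with Ccl7 and in 4.17% to 12.1% of cells without it. The direction was the same in all 4 libraries for both genes. For Ccl4, which lies in the other cluster, the shares with and without Ccl7 were 22.1% and 25.5%. These are shares of cells from 4 libraries and not replicate measurements.

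Ccl3 and Ccl4 had their highest mean levels in states 4, 5 and 6. In state 4, Ccl3 was at 689, 1972, 870 and 2221 CPM and Ccl4 at 1078, 3037, 2799 and 2927 CPM in AD 1, AD 2, ADAM 1 and ADAM 2. State 4 is small, with 23 to 62 cells per library. In state 5, with 594 to 771 cells per library, Ccl3 was at 1177, 1063, 908 and 1414 CPM and Ccl4 at 1254, 1135, 1045 and 2078 CPM. State 6, with 20 cells in only 3 libraries, held Ccl3 at 1096, 887 and 1238 CPM and Ccl4 at 1333, 1603 and 2010 CPM in AD 1, ADAM 1 and ADAM 2, within or overlapping the ranges of state 5. State 0 was lower for Ccl3 in every library, at 430, 330, 265 and 822 CPM, and its range did not overlap that of state 5. For Ccl4 the ranges overlapped, because state 0 of ADAM 2 was at 1606 CPM and the other 3 libraries were at most at 738 CPM. Monocytes, at 31.7 to 97.7 CPM for Ccl3 and 76.1 to 149 CPM for Ccl4, were at the low end. T and NK cells carried Ccl4 at 224 to 443 CPM.

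Ccl3 and Ccl4 were also found together cell by cell. In state 0, Ccl4 was detected in 45.3% to 69.7% of cells with a Ccl3 UMI and in 14.1% to 34.4% of cells without one, both at 2000 UMIs per cell. In state 5 the shares were 58.2% to 73.0% and 36.6% to 45.4%. In each state, the share with Ccl3 exceeded the share without it in all 4 libraries. Across the 9 sets with 20 cells in every library, the log2 levels of Ccl3 and Ccl4 had a Pearson r of 0.92, a description over sets that share libraries.

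**Figure D2:**
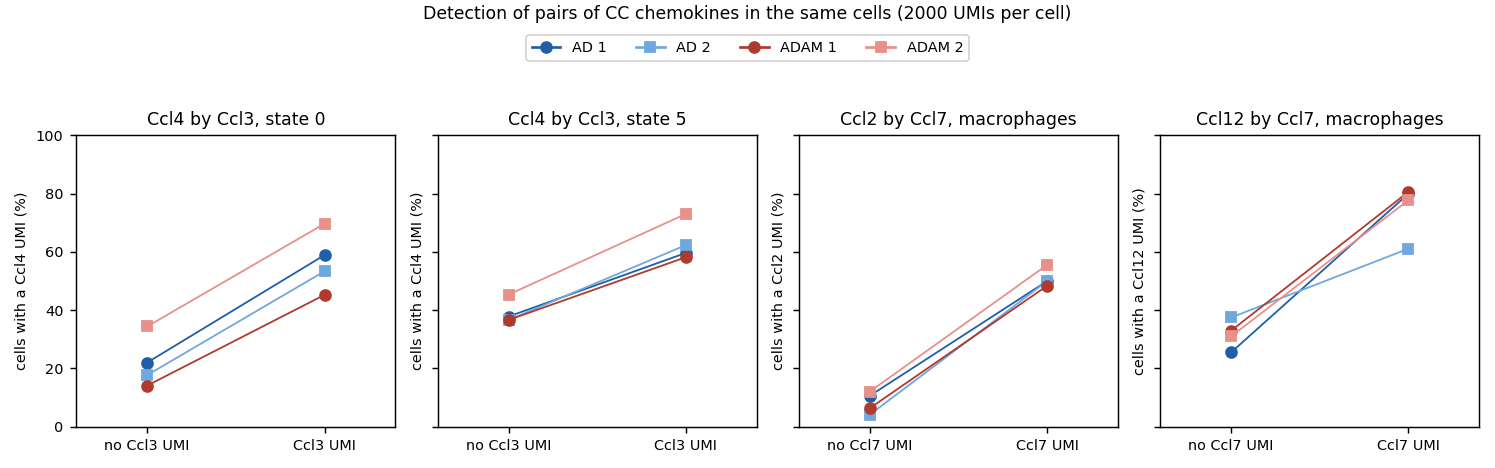
Detection of a second chemokine in cells without and with a UMI of the first. The y axis is the percent of cells, thinned to 2000 UMIs, that held a UMI of the second gene, and each line joins the values of a library. All 16 lines rise, from 4.17% to 12.1% up to 48.4% to 55.6% for Ccl2 by Ccl7 in macrophages.

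Ccl5 belonged to lymphocytes. In T and NK cells it stood at 8136 CPM in AD 1, 13029 CPM in AD 2, 8156 CPM in ADAM 1 and 8955 CPM in ADAM 2, and 79.8% to 93% of thinned cells held a UMI. No other set came near, the next being proliferating cells at 484 to 1970 CPM. Cells of the class with a Cd8a or Cd8b1 UMI and none of Cd4, Cd40lg, Ncr1 or Klrb1c were at 9353 to 14110 CPM. Cells with a Cd4 or Cd40lg UMI and none of Cd8a, Cd8b1, Ncr1 or Klrb1c were at 1546 to 4877 CPM. In proliferating cells, 98.6% to 99.3% of Ccl5 UMIs lay in cells that held a T or NK marker. In macrophages, at 807, 732, 388 and 149 CPM, 79.5% to 96.7% of Ccl5 UMIs lay in 3 to 5 cells per library that had at least 10. Microglia were at 37.1, 31.1, 55.1 and 35.4 CPM, and 3.55% to 6.33% of them held a UMI at 2000 UMIs, close to the 3.32% to 7.19% of monocytes.

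Ccl6 and Ccl9, neighbours in the second cluster, differed in their microglial pattern. Ccl6 was at 263, 248, 246 and 267 CPM in state 0, at 1479, 1223, 1107 and 888 CPM in state 5 and at 2630, 2409 and 2523 CPM in state 6 (AD 1, ADAM 1 and ADAM 2). State 0 did not overlap the other 2 states. Ccl9 ran the other way, at 78.2, 78.5, 64.6 and 61.8 CPM in state 0 and at 14.9, 18.8, 8.34 and 8.06 CPM in state 5, again without overlap. Both were high in monocytes, which held Ccl6 at 756 to 1672 CPM and Ccl9 at 167 to 296 CPM. Neutrophils held Ccl6 at 1785 to 3514 CPM in the 3 libraries with enough cells, and T and NK cells at 21.0 to 58.3 CPM. Ccl6 was detected in 71.9% to 88.0% of thinned monocytes.

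By likeness of level across the 9 sets, among 9965 genes, the closest gene to Ccl2 was Cav2 (Pearson r of 0.97), to Ccl3 Gpr162 (0.98), to Ccl4 Rnf128 (0.98) and to Ccl5 Kcnn4 (0.94), followed by Cd8a. The closest to Ccl6 was Tmem147 (0.93), to Ccl7 the macrophage marker Mrc1 (0.97), to Ccl9 Uxs1 (0.93) and to Ccl12 Afap1l1 (0.97). With 9 points that share 4 libraries, high values are reached by many genes, and the list is a description. Among the members, Ccl2 tracked Ccl9 (0.87) and Ccl12 (0.72), and Ccl5 and Ccl6 ran opposite (-0.71). For Ccl2, the mean of state 3 (78.6 CPM, range 5.14 to 286 CPM) rests largely on the single cell of AD 1 described above.

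The effect of the Axl and Mertk deletions was tested on UMIs summed per library, with edgeR's quasi-likelihood test and Benjamini-Hochberg adjustment over all genes of a set. Of 80 pairs of a member and a tested set, 68 passed the expression filter. Of these, 16 had an unadjusted p under 0.05 and 4 had an adjusted p under 0.05, 3 of them higher in ADAM and 1 lower. The other 52 had log2 folds from -2.07 to 1.34, of which 32 were positive. Over all genes of the same fits, 0.122% of 73151 gene and set pairs had an adjusted p under 0.05. By set, 2.21% (macrophages) to 8.73% (proliferating cells) of genes had an unadjusted p under 0.05. Folds are ADAM over AD throughout.

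**Figure D3:**
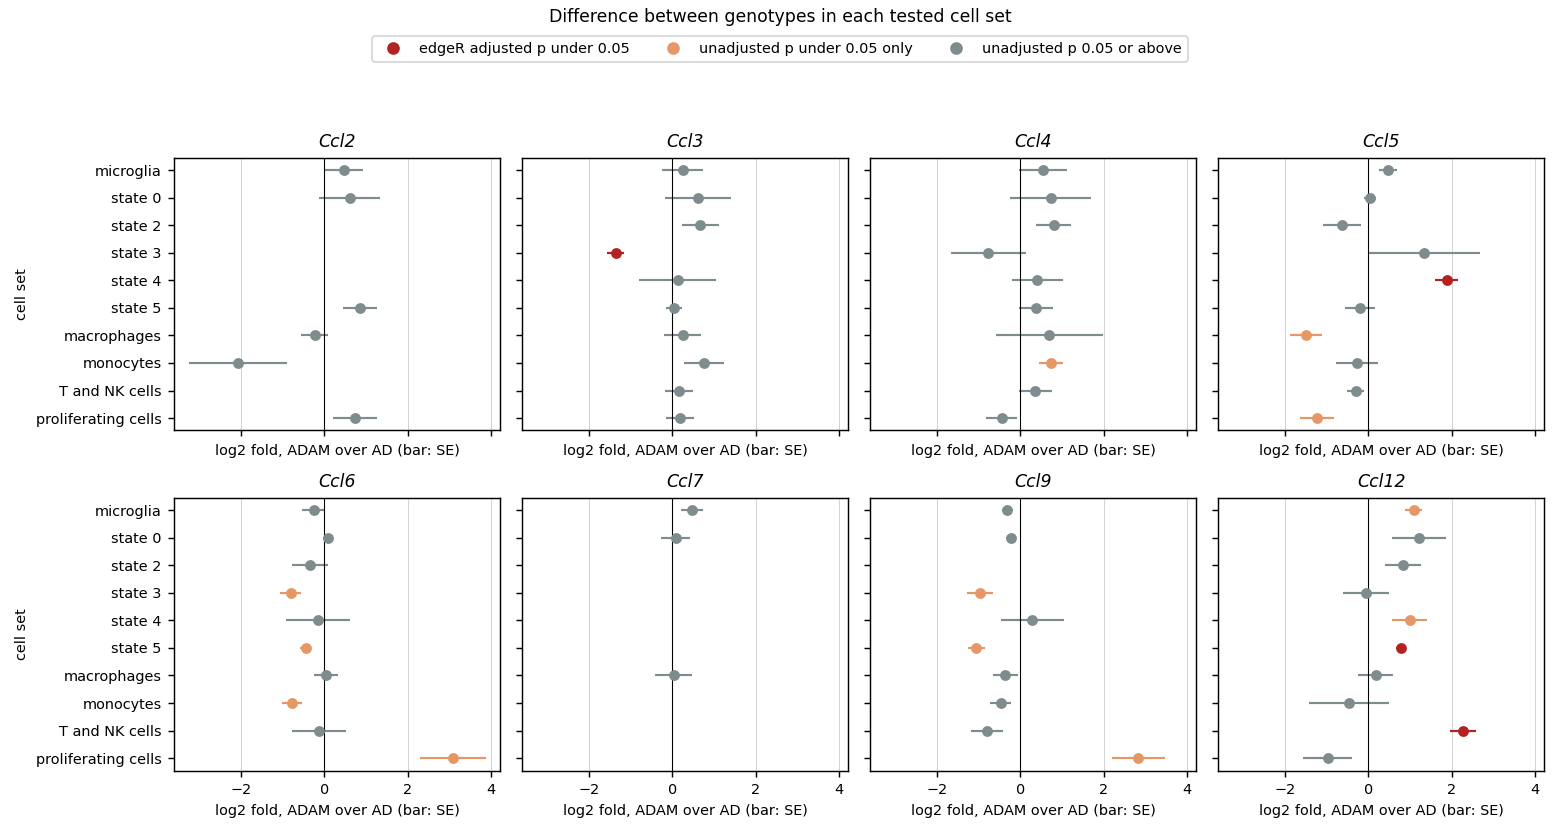
Log2 fold of ADAM over AD for each CC chemokine in each tested set. The x axis is the log2 fold from edgeR, bars are standard errors, and red, orange and grey points have an adjusted p under 0.05, only an unadjusted p under 0.05, or neither. Red points are Ccl3 in state 3 (-1.36), Ccl5 in state 4 (1.88), and Ccl12 in state 5 (0.79) and in T and NK cells (2.27).

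In microglia as a whole, none of the 8 members passed, against 0.0419% of 11924 genes, and 1 of 8 had an unadjusted p under 0.05, against 2.35% of all genes. That gene was Ccl12, at 189 CPM in AD 1, 201 CPM in AD 2, 319 CPM in ADAM 1 and 474 CPM in ADAM 2 (mean 195 ± 8.71 and 397 ± 110, SD, n = 2 each). Both ADAM libraries were above both AD libraries. Its log2 fold was 1.09 (SE 0.21) with an adjusted p of 0.716 in edgeR. DESeq2 called this 1 member, with an adjusted p of 2.8e-04, and limma-voom called 0. In thinned microglia, Ccl12 was detected in 19.7% (95% exact interval 17.7% to 21.9%), 21.8% (20.3% to 23.3%), 25.4% (23.5% to 27.3%) and 31.9% (29.8% to 34.1%) of the cells in AD 1, AD 2, ADAM 1 and ADAM 2. These intervals cover counting error only.

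The other 7 members in microglia had unadjusted p-values of 0.05 or above. Ccl3 was at 822 and 596 CPM in AD and at 513 and 1096 CPM in ADAM, with a log2 fold of 0.25 (SE 0.49). Ccl4 was at 1021 and 788 CPM in AD and at 717 and 1804 CPM in ADAM, with a log2 fold of 0.55 (SE 0.58). For both, ADAM 2 was the highest and ADAM 1 the lowest library, so the ADAM libraries enclosed the AD libraries. Without ADAM 2 the folds were -0.44 and -0.31. Without ADAM 1, the fold of Ccl4 was 1.08.

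Ccl6 was at 946 and 553 CPM in AD microglia and at 587 and 623 CPM in ADAM microglia, a log2 fold of -0.26 (SE 0.28), with AD 1 alone high. Ccl9 was at 51.2 and 61.6 CPM against 49.6 and 38.4 CPM, a log2 fold of -0.31 (SE 0.14). Here both ADAM libraries were below both AD libraries by a margin smaller than the spread within AD. For Ccl2, Ccl5 and Ccl7 the log2 folds were 0.47 (SE 0.46), 0.47 (SE 0.22) and 0.47 (SE 0.26). Ccl2 and Ccl5 overlapped between genotypes. Ccl7 did not, at 3.15 and 2.81 CPM against 4.15 and 3.69 CPM. Without the top cell of each library, Ccl7 was at 0.699 and 2.17 CPM in AD and at 3.54 and 2.999 CPM in ADAM, with AD 1 the library that moved most.

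**Figure D4:**
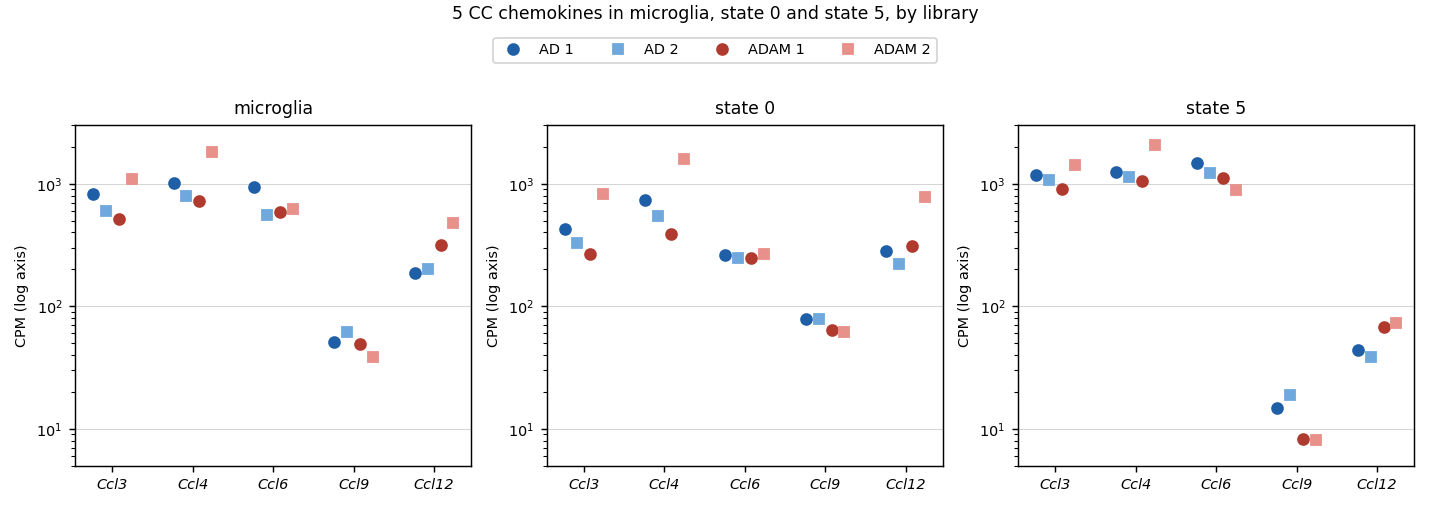
Levels of 5 CC chemokines in all microglia, state 0 and state 5. The y axis is CPM on a log axis and each point is a library, with AD in blue and ADAM in red. ADAM 2 is the highest library for Ccl3, Ccl4 and Ccl12 in each panel, and in state 5 both ADAM libraries are above both AD libraries for Ccl12 and below them for Ccl6 and Ccl9.

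In state 0, the largest state, ADAM 2 was again the highest library for Ccl3, Ccl4 and Ccl12, while Ccl6 was at 246 to 267 CPM in every library. Here 0 of 8 members passed in edgeR against 0.101% of 10912 genes. None had an unadjusted p under 0.05, against 4.22% of genes, and DESeq2 and limma-voom called 0. Ccl12 had a log2 fold of 1.22 (SE 0.65, adjusted p = 0.998), with ADAM 2 at 779 CPM and the other 3 libraries at 220 to 311 CPM. In state 0 of ADAM 2, neutrophil markers summed to 688 CPM and haemoglobin to 21.1 CPM, against at most 26.4 and 0.484 CPM in the other libraries, and their part in these levels was not tested. Without ADAM 1, so that the only ADAM library is ADAM 2, the log2 folds in state 0 were 1.22 for Ccl3, 1.43 for Ccl4 and 1.75 for Ccl12. With ADAM 1 as the only ADAM library, the fold of Ccl12 was 0.39.

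In state 5, Ccl12 was higher in ADAM. It stood at 44.0 CPM in AD 1 and 38.3 CPM in AD 2, and at 68.0 CPM in ADAM 1 and 73.6 CPM in ADAM 2. The genotypes did not overlap. The log2 fold was 0.79 (SE 0.13, edgeR adjusted p = 0.0254), and Ccl12 was the 1 called of 7 members tested, against 0.153% of 10436 genes. Without AD 2 the fold was 0.67 with an adjusted p of 0.0532, and without each other library it stayed under 0.05. In ADAM 2, 87 of 411 Ccl12 UMIs lay in 1 cell. With the top cell of each library left out, levels were 41.6 and 35.1 CPM in AD and 64.3 and 58.1 CPM in ADAM, still without overlap. Without ADAM 2, the library with 704 CPM of neutrophil markers in this state, the fold was 0.73. The part of those markers in the difference was not tested.

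Ccl6 and Ccl9 pointed the other way in state 5, and 3 of 7 members had an unadjusted p under 0.05 against 5.3% of genes. Ccl6 had a log2 fold of -0.44 (SE 0.14, adjusted p = 0.543) from the levels given above, 1479 and 1223 CPM in AD against 1107 and 888 CPM in ADAM. Ccl9 had a log2 fold of -1.06 (SE 0.20, adjusted p = 0.0651), from 14.9 and 18.8 CPM in AD and 8.34 and 8.06 CPM in ADAM. For both genes the ADAM libraries were below the AD libraries, and neither passed the adjusted threshold. Thinned state 5 cells held a Ccl9 UMI in 2.83% and 2.68% of AD cells and in 0.809% and 1.19% of ADAM cells.

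Ccl3 was lower in ADAM in state 3, a set of 69 to 112 cells per library. Its level was 1076 CPM in AD 1, 703 CPM in AD 2, 396 CPM in ADAM 1 and 286 CPM in ADAM 2. Both ADAM libraries were below both AD libraries. The log2 fold was -1.36 (SE 0.21, edgeR adjusted p = 1.5e-04), and Ccl3 was the 1 called of 6 members tested, against 0.313% of 3191 genes. The adjusted p stayed under 0.05 without each library in turn, with folds from -1.64 to -1.05. With the top cell of each library left out, the levels were 865, 459, 263 and 255 CPM. Of the other members, Ccl6 (-0.80, adjusted p = 0.595) and Ccl9 (-0.96, adjusted p = 0.502) had an unadjusted p under 0.05, which 4.95% of genes had.

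Ccl5 was higher in ADAM in state 4, at 211 and 113 CPM in AD and at 548 and 588 CPM in ADAM. The log2 fold was 1.88 (SE 0.27, edgeR adjusted p = 0.0018), the 1 called of 6 members tested against 0.127% of 3938 genes. This difference rested on 1 cell in each library. The cell with most Ccl5 held 28 of 38 UMIs in AD 1, 55 of 69 in AD 2, 216 of 238 in ADAM 1 and 116 of 120 in ADAM 2. Without those cells the levels were 56.8, 23.3, 52.9 and 20.2 CPM, and the genotypes overlapped. Ccl12 in state 4 had a log2 fold of 0.99 (SE 0.41, adjusted p = 0.9998) and was the 1 member with only an unadjusted p under 0.05, beside 3.35% of genes.

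**Figure D5:**
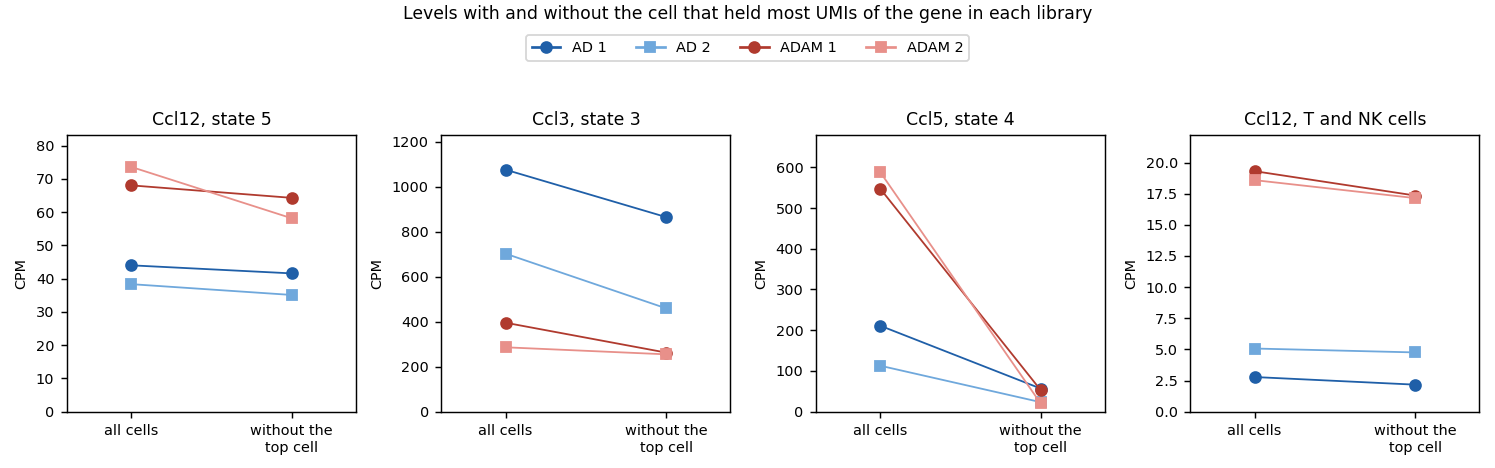
The 4 called differences with all cells and without the cell that held most UMIs of the gene in each library. The y axis is CPM from 0 and each line joins the values of a library. ADAM and AD lines stay apart for Ccl12 in state 5 (58.1 to 64.3 against 35.1 to 41.6 CPM), Ccl3 in state 3 and Ccl12 in T and NK cells, and cross for Ccl5 in state 4.

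In T and NK cells, Ccl12 was higher in ADAM at a very low level. AD 1 held 9 Ccl12 UMIs and AD 2 held 16, while ADAM 1 held 49 and ADAM 2 held 50, which are 2.78, 5.07, 19.3 and 18.6 CPM. Both ADAM libraries were above both AD libraries. The log2 fold was 2.27 (SE 0.32, edgeR adjusted p = 0.0086), the 1 called of 6 members tested against 0.241% of 9533 genes. Without AD 1 the fold was 1.9 with an adjusted p of 0.127. The UMIs were spread over cells, with at most 5 in the top cell of any library. Thinned to 2000 UMIs, 0.116%, 1.19%, 3.29% and 3.34% of the cells of AD 1, AD 2, ADAM 1 and ADAM 2 held one. The 4 microglial markers summed to 92.4, 95.1, 117 and 104 CPM and macrophage markers to 2.78, 6.02, 6.70 and 4.09 CPM in the same cells, with 4 of 4 and 3 to 4 of 5 detected, and their part in the result was not tested. Ccl5, the main chemokine of this class, had a log2 fold of -0.30 (SE 0.20). No member other than Ccl12 had an unadjusted p under 0.05, which 5.2% of genes had.

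Macrophages gave 0 members called of 8 in edgeR, DESeq2 and limma-voom, against 0.0154% of 6483 genes in edgeR. Ccl7 and Ccl12, their leading members, had log2 folds of 0.04 (SE 0.44) and 0.18 (SE 0.41), and for both ADAM 1 was the highest and ADAM 2 the lowest library. Ccl5 had a log2 fold of -1.50 (SE 0.39, adjusted p = 0.9995), the 1 member with an unadjusted p under 0.05, which 2.21% of genes had. Ccl5 without the top cell of each library was at 542 and 350 CPM in AD and at 89.8 and 88.2 CPM in ADAM. T and NK markers summed to 28.6 to 355 CPM in macrophages. In macrophages without a UMI of such a marker, Ccl5 was at 271 and 479 CPM in AD and at 430 and 40.5 CPM in ADAM, and the genotypes overlapped. For Ccl4 the direction turned with the library, with a log2 fold of 1.55 without ADAM 1 and -1.69 without ADAM 2.

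In monocytes, 0 of 7 members passed in the 3 tools, against 0.155% of 6460 genes in edgeR. Ccl4, at 85.2 and 76.1 CPM in AD and 107 and 149 CPM in ADAM (log2 fold 0.74, SE 0.29), and Ccl6, at 1672 and 1581 CPM against 756 and 1064 CPM (log2 fold -0.77, SE 0.25), had unadjusted p-values under 0.05, which 8.51% of genes had. Neutrophil markers summed to 93.1, 2053, 4501 and 72753 CPM in the monocytes of AD 1, AD 2, ADAM 1 and ADAM 2, and their part was not tested.

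In proliferating cells, 0 of 7 members passed in edgeR and limma-voom, against 0.0842% of 7124 genes in edgeR, and DESeq2 called Ccl6 and Ccl9. Ccl6 was at 144 and 217 CPM in AD and at 2383 and 429 CPM in ADAM, and Ccl9 at 30.9 and 54.1 CPM against 439 and 130 CPM. The log2 folds were 3.09 (SE 0.78, adjusted p = 0.261) and 2.84 (SE 0.63, adjusted p = 0.178). For Ccl6 in ADAM 2, 328 of 404 UMIs lay in 1 cell, and without the top cell of each library the levels were 99.2, 103, 2129 and 82.0 CPM. Ccl5 ran the other way there, with a log2 fold of -1.24 (SE 0.41, adjusted p = 0.392). These 3 members had unadjusted p-values under 0.05, which 8.73% of genes had. The class differed in its makeup between libraries. T and NK markers summed to 3889 and 1843 CPM in AD and 840 and 714 CPM in ADAM, and neutrophil markers to 19306 CPM in ADAM 2 against 10.3 to 182 CPM elsewhere. Their part in these folds was not tested. In state 2, 0 of 5 members passed in the 3 tools and none had an unadjusted p under 0.05, against 0.0635% and 3.05% of 3150 genes.

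Whether the genotype difference itself varied between sets was tested in 64 pairs, each state against state 0 and each other class against microglia, with a term for library. Of these, 7 passed. In state 5 against state 0, Ccl6 (-0.53, SE 0.13, edgeR adjusted p = 0.0119) and Ccl9 (-0.84, SE 0.21, adjusted p = 0.0108) passed, beside 1.02% of genes. The term for Ccl6 did not pass without AD 1 (adjusted p = 0.521) or ADAM 2 (0.758), and that for Ccl9 without AD 2 (0.406), ADAM 1 (0.0514) or ADAM 2 (0.131). For Ccl12 the term was -0.34 (SE 0.60, adjusted p = 0.956), so a difference between states 5 and 0 was not shown. In state 3 against state 0, Ccl2 (-4.57, edgeR adjusted p = 1.4e-10), Ccl6 (-0.73, adjusted p = 0.0029) and Ccl12 (-1.03, adjusted p = 9.5e-04) passed, beside 0.154% of genes. The term for Ccl3, the member called between genotypes in state 3, did not pass, so a difference from state 0 was not shown for it. The term for Ccl2 was -2.55 (adjusted p = 0.523) without AD 1, whose Ccl2 lay in 1 cell. Those of Ccl6 and Ccl12 were -0.36 and -0.57 without AD 1, with adjusted p-values of 0.931 and 0.752. The Ccl6 term also did not pass without ADAM 1 (adjusted p = 0.118) or ADAM 2 (0.247), nor the Ccl12 term without ADAM 2, where it was -0.61.

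In state 4 against state 0, Ccl5 passed (1.9, adjusted p = 4.6e-09, beside 0.219% of genes), on the same few cells as above, and without AD 2 the term was 1.37 with an adjusted p of 0.383. In macrophages against microglia, Ccl5 passed (-2.04, SE 0.28, adjusted p = 6.4e-05, beside 0.0438% of genes). The term for Ccl5 in macrophages stayed past the threshold without each library in turn, from -2.47 to -1.70, and most of that Ccl5 lay in the 3 to 5 cells per library described above. With limma-voom, which treats the library as a correlated block, only Ccl5 in state 4 passed (adjusted p = 0.0060). In limma-voom the adjusted p of Ccl5 in macrophages was 0.998. No member passed in state 2 against state 0 (beside 0.066% of genes), or in monocytes (0.394%), T and NK cells (0.194%) or proliferating cells (0%) against microglia, in edgeR or limma-voom. Of these pairs, 1 in T and NK cells and 4 in proliferating cells had an unadjusted p under 0.05 in edgeR. The share of all genes under that unadjusted threshold was not computed for these fits, so the counts are not read as a result.

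The receptors Ccr1 and Ccr2 and the other ligands of the family did not pass in microglia. Ccr1, which binds Ccl3, Ccl5, Ccl6 and Ccl9, was at 6.53 and 2.95 CPM in AD and at 3.74 and 6.53 CPM in ADAM, and overlapped (log2 fold 0.25, SE 0.50). Ccr2 was at 5.48 and 4.05 CPM in AD and at 3.47 and 2.77 CPM in ADAM, a log2 fold of -0.53 (SE 0.28), with both ADAM libraries below both AD libraries. Ccrl2, an atypical receptor, was at 100, 87.9, 69.8 and 177 CPM, with ADAM 2 alone high. For these 3 receptor genes the adjusted p was 0.9999 in edgeR. Ccr1 and Ccr2, named here because they bind members, were chosen after their values were seen. Of 13 other CC ligands, 4 were tested, 0 passed and 1 had an unadjusted p under 0.05, which 2.35% of genes had.

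Of 20 NF-kB and cytokine genes, 0 passed in microglia (edgeR, 0 at an unadjusted p under 0.05), 15 had positive folds and the median log2 fold was 0.14. Zfp36, an mRNA decay factor, had a log2 fold of 0.13 (SE 0.16) and Nfkbia, the inhibitor of NF-kB, 0.48 (SE 0.31). Of 20 immediate early genes, which respond to stimulation within minutes and to dissociation, 0 passed (0 at an unadjusted p under 0.05), with 16 positive and a median of 0.15. Of 18 interferon response genes, 0 passed and 8 had an unadjusted p under 0.05, against 0.0419% and 2.35% of 11924 genes. Of the 18 folds, 17 were positive and the median was 0.34. Ifitm3 was at 0.84 (SE 0.17, edgeR adjusted p = 0.716) and Bst2 at 0.20 (SE 0.12). Over all 11924 genes the median was 0.0035, and over the 8 chemokines it was 0.47 with 6 positive.

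In state 5, 1 of 19 NF-kB and cytokine genes and 1 of 18 immediate early genes passed in edgeR, against 0.153% of 10436 genes. Both were higher in ADAM. An unadjusted p under 0.05 was found for 7 of the 19 and 9 of the 18, against 5.3% of genes. Il1b, which encodes the cytokine interleukin-1 beta, was at 31.1 and 20.2 CPM in AD and at 53.5 and 53.2 CPM in ADAM, giving a log2 fold of 1.09 with SE 0.17 and an adjusted p of 0.0345 in edgeR. Egr1, an early response transcription factor, was at 114 and 111 CPM against 175 and 245 CPM, a log2 fold of 0.90 (SE 0.14, adjusted p = 0.0356). For both genes the ADAM libraries were above the AD libraries. The median fold was 0.45 in the NF-kB list, with 16 of 19 positive, and 0.48 among immediate early genes, with 17 of 18 positive, beside 0.0010 over all genes of the state.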

How the data were processed

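Droplet 3′ single-cell libraries of CD45+ cortical cells (2 AD, 2 ADAM) were analysed from the authors' deposited table of raw UMI counts and their table of cell annotations. Cell Ranger 3.1.0, Seurat 3.2.1.9002 and the mm10 build are named in the submitters' processing notes, without their roles, and the sources used here do not give the filters on cells. The annotations hold UMI counts per cell and a percent of mitochondrial UMIs, both deposited by the authors, and the percent was not used. The members and gene lists were chosen with earlier results of these data known. Of 15451 cells, the authors had marked 823 as doublets, which have no class, and 216 as doublets of microglia and T cells, which have no state. Neither kind entered a set. Results that need certain withheld genes are not reported here.

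Counts were summed per cell set and library and tested for genotype with edgeR 4.0.16 (quasi-likelihood, robust, TMM scaling, minimum count of 10, at least 20 cells in each library, adjusted p threshold 0.05) in 10 sets. A further 8 fits over pairs of sets, with library as a term, tested whether the genotype difference varied. The edgeR genotype test was checked on simulated counts with known folds, for microglia and state 5 only. Those counts had the same set spread for every gene and no outlying cell or library. The check therefore does not cover these features of the data. The other fits were not checked in this way. All 8 members were named in microglia, and elsewhere where called or with an unadjusted p under 0.05. Genes of related lists were named where called, with up to 3 of each by level in microglia. CPM divides by all UMIs of the set. Shares of cells used draws of 2000 UMIs per cell without replacement, leaving out shallower cells, with exact binomial 95% intervals. Likeness was Pearson's r of log2(CPM + 1), averaged over libraries. Positions are from GENCODE vM21. DESeq2 1.42.0 and limma 3.58.1 (voom) were alternatives, under R 4.3.3, with Python 3.11.15, numpy 2.4.6, pandas 2.3.3, scipy 1.17.1, Biopython 1.88 and matplotlib 3.10.9. Over genes, the chi-square statistic between the libraries of a group, divided by its degrees of freedom, was 20.1 in AD and 28.6 in ADAM, above sampling noise.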

Additional observations from a re-analysis of the deposited data

Results flagged for a closer look

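In 7 pairs of a member and a set, the genotype difference (log2, ADAM over AD) differed between sets by edgeR's test of the difference itself. Against state 0, the term was -4.57 for Ccl2, -0.73 for Ccl6 and -1.03 for Ccl12 in state 3, 1.9 for Ccl5 in state 4, and -0.53 for Ccl6 and -0.84 for Ccl9 in state 5. Against microglia, the term was -2.04 for Ccl5 in macrophages. With limma-voom and the library as a correlated block, 1 of these 7 passed, Ccl5 in state 4. That term rests on 1 cell in each library, the Ccl2 term on 1 cell of AD 1, and the Ccl5 term in macrophages on 3 to 5 cells per library. Without AD 1, the terms in state 3 of Ccl6 (-0.36, edgeR adjusted p = 0.931) and Ccl12 (-0.57, adjusted p = 0.752) did not pass, and those in state 5 were each lost without 1 or more single libraries, as given with that set.

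The cells that the authors marked as doublets entered no comparison, and there were 134, 181, 196 and 312 of them in AD 1, AD 2, ADAM 1 and ADAM 2. In them, 3 of 8 members were higher in both ADAM libraries than in both AD libraries, as were 14.6% of 12321 genes with at least 10 UMIs. Ccl5 was lower in both, at 776 and 1188 CPM in AD and at 598 and 343 CPM in ADAM, as were 21.7% of genes. Ccl12 was at 166 and 234 CPM in AD and at 380 and 408 CPM in ADAM. Ccl2 was at 37.2 and 32.8 CPM against 58.5 and 64.0 CPM. Ccl7 was at 1.26 and 4.24 CPM against 37.4 and 19.2 CPM. No test was run on these cells, whose mixture of classes can differ between libraries.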

How the results depend on the processing

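The 4 calls between genotypes were 4 without TMM, with RLE scaling, with limma-voom and in cells with at least 1000 UMIs, 7 with DESeq2 and 10 without the expression filter, and all 4 were kept in each. Of all genes, 0.157% were called without TMM, 0.122% with RLE scaling, 0.0711% with limma-voom and 0.121% in cells with at least 1000 UMIs. The share of all genes rose to 0.267% with DESeq2 and to 0.717% without the expression filter. Leaving out 1 library gave 5 to 24 calls, of which 3, 3, 4 and 4 of the 4 were kept without AD 1, AD 2, ADAM 1 and ADAM 2 (5, 9, 24 and 15 calls). Summed over the same fits, the share of all genes called was 0.122% with all libraries and 0.152%, 0.261%, 2.31% and 1.47% without each in turn, while the share of members was 5.88% and then 6.85%, 12.2%, 34.3% and 20.3%. The 7 terms for differences between sets were 7 without TMM and 1 with limma-voom, and 9 to 19 with 1 library left out (9, 12, 19 and 13, of which 3, 5, 5 and 3 were kept), beside 0.261% of all genes and then 0.255%, 0.326%, 1.196% and 1.02%. For these terms the share of all genes was 0.310% without TMM and 0.0136% with limma-voom. A fit that leaves 1 library in a group assumes that it varies like the others.

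In microglia, leaving out 1 library gave folds of -0.44 to 0.71 for Ccl3, -0.31 to 1.08 for Ccl4 and -0.61 to 0.20 for Ccl6, with a change of sign for Ccl3 and Ccl4 without ADAM replicate 2 and for Ccl6 without AD replicate 1. Of 291 alternative folds over 23 results, 252 kept direction and side of the threshold, 34 newly passed, 2 no longer passed and 3 reversed. With the replicate number as a block in edgeR there were 5 calls, the 4 above and Ccl6 in state 3 (-0.74, adjusted p = 0.0013). Beside these, 0.349% of all genes were called. The numbers share only a number: same-numbered libraries had deviations that correlated at -0.28 (state 2) to 0.11 (state 4). Crossed numbers, chosen after seeing the data, gave 7 calls, with the 4 kept, beside 0.457% of all genes.

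Of 72 levels, 72 moved by less than the spread between libraries in cells with at least 1000 UMIs, 71 with TMM over all sets, and 64 without the top cell, an alternative added after seeing the data. Shares of cells depend on depth, since 27 of 32 moved when thinned to 1000 UMIs and 31 of 32 unthinned. Cells without any marker of neutrophils, T, NK or B cells, haemoglobin or choroid plexus were 1.02% of microglia in ADAM 2 (21 cells), so this choice was run for microglia as a whole and not for the states. There, Ccl5 (0.97, adjusted p = 0.0125) and Ccl12 (1.03, adjusted p = 1.9e-04) passed in edgeR. They were 2 of 7 members tested, beside 0.324% of 9870 genes. In microglia without state 2, 0 of 8 members passed, beside 0.0677% of 11819 genes.

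With 2 pools on each side, adjusted p-values rest on a spread estimated largely from other genes. Sets of 20 to 100 cells can be set by 1 cell.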

Other observations

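In monocytes, the recruited cells that carry Ccr2, interferon response genes were lower in ADAM. Of 18 genes of the list, 17 were tested, 3 fell, 14 had an unadjusted p under 0.05, 0 were positive and the median log2 fold was -1.64. Ifit2 was at 45.6 and 57.5 CPM in AD and at 6.41 and 5.77 CPM in ADAM, giving a log2 fold of -3.01 with SE 0.34 and an adjusted p of 0.0393 in edgeR. Rtp4 was at 208 and 156 CPM against 34.2 and 29.8 CPM (-2.46, SE 0.26, adjusted p = 0.0393), and Oasl2 at 202 and 154 CPM against 45.9 and 40.4 CPM (-1.999, SE 0.24, adjusted p = 0.0393). No AD library overlapped an ADAM library for these 3 genes. Among all 6460 genes tested in monocytes, 0.155% passed, 8.51% had an unadjusted p under 0.05, and the median was 3.1e-04. Neutrophil markers, at 93.1 to 72753 CPM in this class, were higher in both ADAM libraries than in both AD libraries, and their part was not tested.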
